A study of Mus musculus with 6 samples.

Results

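The AP-1 and immediate early genes examined here were Fos, Fosb, Fosl1, Fosl2, Jun, Junb, Jund, Egr1, Ier2 and Ier3. Members were all probes of the bead array whose platform gene symbol was one of these 10 genes, which gave 12 of 45281 probes, for 9 of the 19057 genes named on the array. No probe in the annotation used here carried Fosl1. Total RNA came from E14, a mouse embryonic stem cell line kept without feeder cells on gelatin, in serum with the cytokine LIF, and was sampled at day 4 after transfection. The control group received a shRNA of scrambled sequence, the knockdown group a shRNA directed at Ncoa3, which encodes a nuclear receptor coactivator, with 3 biological replicates each. All 6 samples were lipid-transfected with plasmid, the treatment protocol speaks of an Esrrb shRNA plasmid in every sample although titles and design name Ncoa3, and whether transfected cells were selected is not given in the sources used here.

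Immediate early genes are transcribed within minutes of a stimulus, without the need for new protein, and their transcripts are short-lived. MAP kinases activate the serum response factor SRF and its ETS partners at their promoters. Fos and Jun proteins pair through leucine zippers to form AP-1, which binds the sequence TGACTCA. In embryonic stem cells, ERK signalling downstream of FGF drives these genes and primes exit from self-renewal, while LIF also induces several of them.

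Promoter sequence is shown for Fos, Jun and Junb, the AP-1 subunits whose control through cyclic AMP and AP-1-like elements is well known. Each run is the 250 bases before the start of the gene, 5′ to 3′ on the gene's strand, from RefSeq, build GRCm38.p6. Capitals mark TGACG (the core shared by cyclic AMP elements), TGACATCA (an AP-1-like element), CCAAT and TATAAA, searched on both strands, and no marked motif overlapped another.
Fos, chr12:85473640-85473889, plus strand: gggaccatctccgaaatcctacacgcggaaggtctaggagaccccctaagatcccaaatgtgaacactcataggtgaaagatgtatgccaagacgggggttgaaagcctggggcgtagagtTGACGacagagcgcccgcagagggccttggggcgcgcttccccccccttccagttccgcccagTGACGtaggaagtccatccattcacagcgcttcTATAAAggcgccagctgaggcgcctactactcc
Jun, chr4:95052223-95052472, minus strand: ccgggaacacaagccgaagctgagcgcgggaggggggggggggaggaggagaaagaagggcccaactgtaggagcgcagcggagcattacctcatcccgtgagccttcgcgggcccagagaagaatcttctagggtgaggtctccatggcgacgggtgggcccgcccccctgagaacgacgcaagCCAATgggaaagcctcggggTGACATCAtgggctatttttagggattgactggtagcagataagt
Junb, chr8:84978749-84978998, minus strand: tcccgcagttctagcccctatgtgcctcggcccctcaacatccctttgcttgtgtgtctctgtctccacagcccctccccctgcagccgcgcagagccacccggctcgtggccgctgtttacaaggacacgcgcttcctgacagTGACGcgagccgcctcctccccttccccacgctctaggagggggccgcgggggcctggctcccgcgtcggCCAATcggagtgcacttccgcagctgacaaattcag
The Fos window held TGACG at 2 places, from 129 to 125 and from 66 to 62 bases before the start, and TATAAA from 33 to 28 bases before it. Junb had TGACG from 106 to 102 bases before the start, and Jun had TGACATCA from 45 to 38 bases before it. Windows of 7 of the 10 genes were searched, those of Fos, Fosb, Fosl2, Jun, Junb, Jund and Ier3. Egr1, Fosl1 and Ier2 were not searched. The Jund window lies before the outermost start of a gene with 2 RefSeq transcripts, and may not be the promoter of the transcript measured. TGACG lay in 3 of these 7 (Fos, Fosb and Junb) and in 17.8% of 32851 windows of all genes. TGACATCA lay in 1 of the 7 and in 2.93% of all windows. Neither TGACTCA (4.46% of all windows), TGACGTCA (1.55%) nor the serum response CArG box (1.47%) was in any of the 7 windows. That absence holds for these windows only, since bases farther than 250 before a start were not searched.

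The arrays detected between 15720 and 17105 probes, where detected means that the deposited detection p-value, which sets a probe against the negative controls of its array, was under 0.01. The lowest detected signal was between 96.8 and 109 intensity units, the ruler for every level below. A probe detected on at least 3 of the 6 arrays was kept and tested, which left 16674 probes. The array could not check the knockdown, since the only Ncoa3 probe stayed under the detection threshold everywhere (signal 92.9 ± 6.90 in scrambled and 89.8 ± 1.92 in knockdown samples, SD, n = 3 each). Esrrb, the other gene that the protocol names, fell by 0.62 ± 0.07 (SE) on the log2 scale with a limma adjusted p of 3.62e-04. All 11 embryonic stem cell markers examined were detected on every array.

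After the knockdown the AP-1 subunits Jun, Junb, Fos and Fosl2 rose, as did Egr1 and Ier3. Jun rose by 1.87 ± 0.07 on the log2 scale (SE, n = 3 per group). No member fell. Of the 12 member probes, 6 were called higher and 0 lower, 1 (Jund) was kept and did not pass, and 5 were not above background on any array. Calls are limma adjusted p-values under 0.05 over all kept probes, of which 43.6% were called, 20.9% higher and 22.7% lower. Fos and Fosl2 were kept only through the knockdown arrays, where they are high. Of the 5 member probes detected on all 6 arrays, 4 were called higher. In these 5 the 3 knockdown arrays lay above the 3 scrambled arrays, as they did in 25.1% of the 14210 probes detected on all 6 arrays. The same held for Fos and Fosl2, and for 25.4% of all kept probes. In bulk RNA, more cells expressing a gene and more RNA per cell cannot be told apart.

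**Figure D1:**
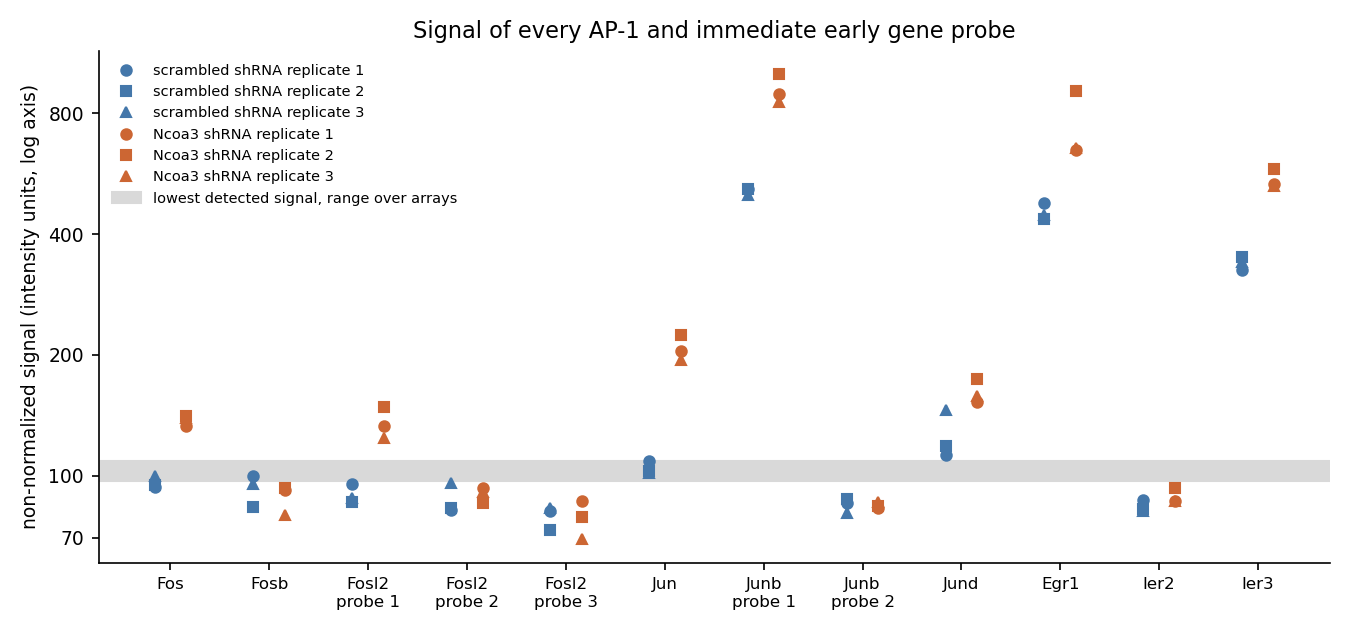
Non-normalized signal (intensity units, log axis) of the 12 member probes on each array, scrambled in blue and knockdown in orange, with 1 symbol per replicate number. The grey band is the range of the lowest detected signal over arrays, 96.8 to 109; Jun in scrambled cells lies in that band, and the Fosl2 probes 2 and 3, the second Junb probe, Fosb and Ier2 lie at or below it in both groups.

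Among the Jun proteins, Jun, the partner most active in driving proliferation genes, was at the edge of detection in control cells. Its signal was 109, 103 and 101 in scrambled replicates 1 to 3, and 204, 224 and 194 in knockdown replicates 1 to 3. The groups did not overlap, and the lowest knockdown array was 1.73 above the highest scrambled array in normalized log2 signal. The mean log2 signal rose from 5.18 ± 0.05 to 7.05 ± 0.07 (SD, n = 3), or 3.65-fold, at a limma adjusted p of 2.15e-06. Only 0.63% of kept probes rose as much as Jun. The size of the change depends on the background subtracted from the near-background control signal, with a log2 change of 0.94 when none was subtracted and 0.95 in the authors' normalized values.

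Junb, a Jun protein that often counteracts Jun and is a target of LIF signalling, was well above background in both groups. Its signal was 519, 519 and 500 in scrambled replicates and 893, 1002 and 854 in knockdown replicates. All knockdown arrays were higher, and the log2 signal rose from 8.87 ± 0.04 to 9.66 ± 0.05 (SD, n = 3), a change of 0.79 ± 0.06 (SE) or 1.73-fold, with a limma adjusted p of 7.90e-05. A second Junb probe, assigned through a cDNA clone rather than the RefSeq transcript, read 80.8 to 87.3 in both groups and was not above background on any array.

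Jund, the Jun protein that most cells express constitutively, did not pass the test. Its signal was 112, 119 and 146 in scrambled replicates and 153, 174 and 158 in knockdown replicates. Scrambled replicate 3 came close to the knockdown arrays, and in normalized log2 signal the gap between the groups was 0.03. The log2 change was 0.65 ± 0.23 (SE), from 5.82 ± 0.52 to 6.47 ± 0.07 (SD, n = 3), at a limma adjusted p of 0.0565. Without scrambled replicate 3 the change was 0.92 with an adjusted p of 0.00362, and without scrambled replicate 1 it was 0.39 (adjusted p = 0.0994). Jund was called higher in 9 of 17 processing alternatives and in the others was not, with changes from 0.31 to 0.92.

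In the Fos family, Fos, whose protein carries a strong activation domain and cannot pair with itself, was detected only after knockdown. Its signal was 93.5, 95.0 and 99.7 in scrambled replicates and 133, 141 and 139 in knockdown replicates. The groups were well apart. In background-corrected, normalized signal, Fos rose at least 1.85-fold, the mean of the knockdown arrays over the lowest detected signal of the scrambled arrays on that scale. Every fold written as at least was computed on that scale, and signal left without background subtraction gave 1.42-fold for Fos. In normalized log2 signal it went from 4.84 ± 0.25, not above background, to 6.06 ± 0.10 (SD, n = 3), at a limma adjusted p of 2.76e-04.

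Fosl2, a Fos relative also called Fra-2 that lacks that activation domain, had 3 probes that did not behave alike. The first read 95.1, 85.7 and 88.0 in scrambled replicates and 133, 148 and 124 in knockdown replicates. It was above background only in knockdown cells and rose at least 1.77-fold on the corrected scale (1.49-fold without background subtraction), from a log2 signal of 4.59 ± 0.04 to 5.99 ± 0.14 (SD, n = 3), at a limma adjusted p of 2.33e-05. The other two Fosl2 probes, annotated to the same RefSeq transcript, were not above background on any array, at 82.1 to 95.7 and at 69.3 to 86.2 units, so the rise of Fosl2 rests on 1 probe of 3.

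Fosb, a family member best known from neurons, was not above background on any array. Its single probe read 99.7, 83.4 and 95.2 in scrambled replicates and 91.8, 92.9 and 79.9 in knockdown replicates, and the groups overlapped. No fold is given for it.

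Egr1, a zinc finger factor of the immediate early class and a sensitive readout of ERK activity, read 478, 437 and 446 in scrambled replicates and 649, 911 and 657 in knockdown replicates. Every knockdown array was higher, and knockdown replicate 2 stood above the other two. The log2 signal rose from 8.67 ± 0.07 to 9.30 ± 0.19 (SD, n = 3), a change of 0.64 ± 0.10 (SE) or 1.55-fold, with a limma adjusted p of 0.00214. Without knockdown replicate 2 the change was 0.53 with an adjusted p of 0.00338.

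Ier3, an immediate early survival factor also induced by NF-kappa-B, read 326, 351 and 340 in scrambled replicates and 532, 582 and 527 in knockdown replicates. The groups were far apart relative to their spread. The log2 signal rose from 8.15 ± 0.10 to 8.83 ± 0.03 (SD, n = 3), a change of 0.67 ± 0.07 (SE) or 1.60-fold, with a limma adjusted p of 2.97e-04. Ier2, a nuclear protein of the same expression class but an unrelated family, read 86.7, 82.5 and 81.8 in scrambled and 86.4, 93.2 and 86.3 in knockdown replicates and was not above background on any array.

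**Figure D2:**
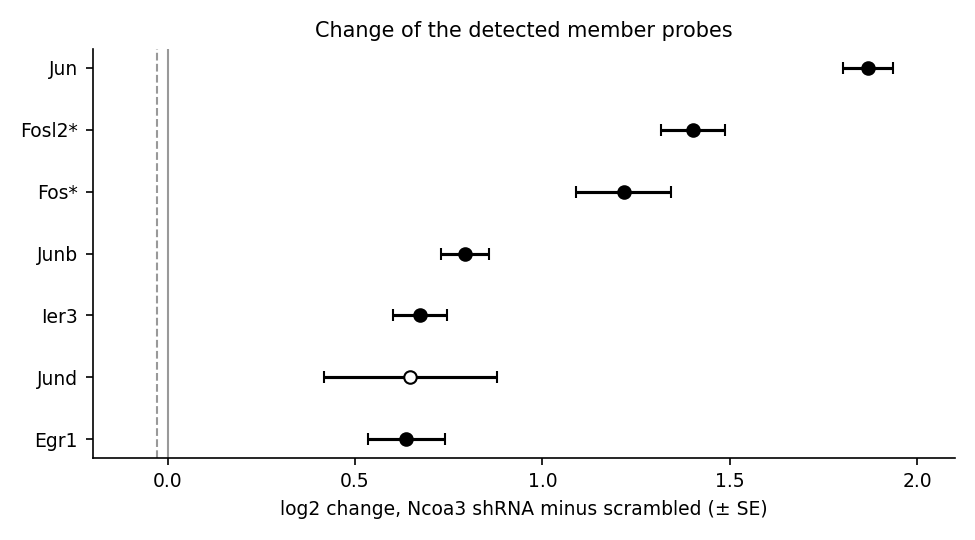
Change in normalized log2 signal, knockdown minus scrambled, for the 7 kept member probes, with standard errors from limma. Filled points passed the test and the open point (Jund, 0.65 ± 0.23) did not, an asterisk marks genes not above background in scrambled cells, whose fitted changes depend on the background subtracted, and the dashed line is the median of all kept probes (-0.03).

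The 5 member probes detected on all 6 arrays had a median log2 change of 0.67, and all 14210 probes detected throughout a median of -0.04. The change was 1.87 for Jun and between 0.64 and 0.79 for Junb, Ier3, Jund and Egr1, where neighbours in order of size differed by less than the sum of their standard errors. Fosl2 and Fos, not above background in scrambled cells, have no place in that order, since their fitted changes of 1.40 and 1.22 became 0.58 and 0.50 when no background was subtracted. Jun had the largest of the 5 changes in that setting too (0.94). In raw signal, knockdown replicate 2 was the highest knockdown array for 7 of 7 kept probes, and its mean signal over all probes was also the highest of the 6 arrays (429, against 387 to 400 on the others). After normalization no array was the highest of its group for more than 3 of the 7.

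**Figure D3:**
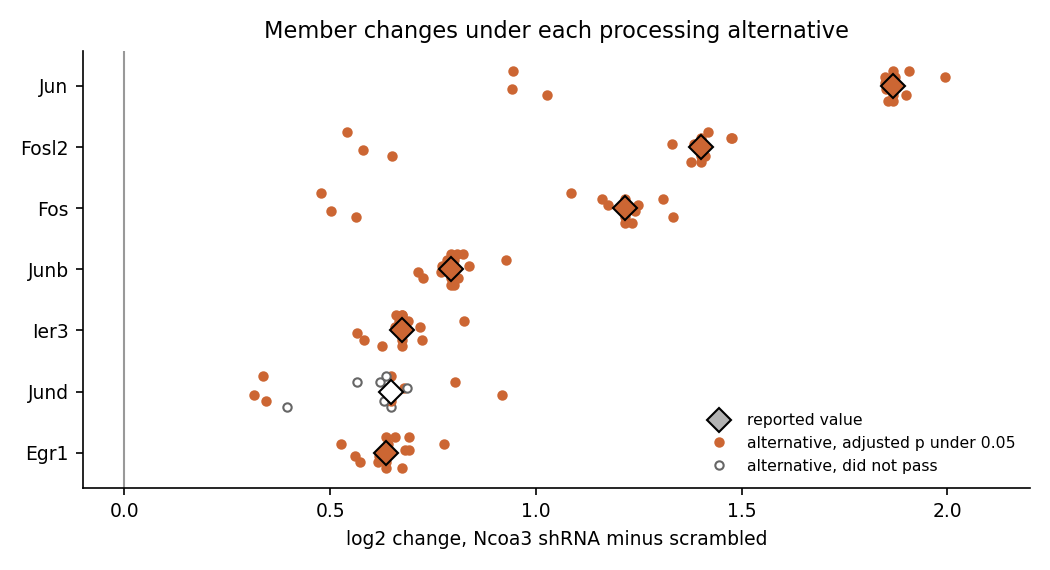
Log2 change of the 7 kept member probes under every processing alternative (small points) and as reported (diamonds); orange passed the test and open symbols did not. All changes are above 0, and the low values of Jun, Fosl2 and Fos, between 0.48 and 1.03, are those with no background correction, with normexp at an offset of 50, and in the authors' normalized values.

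Genes around AP-1 were described through lists of 1 probe per gene, the brightest kept. Atf3, Srf and Krt19, among others, are in more than 1 list, so the counts of the lists are not separate. Over all 9569 named genes, 22.4% were called higher and 24.4% lower, and the median log2 change was -0.03. Among other immediate early genes, 9 of 19 measured were higher and 6 lower, 4 did not pass, and the median was 0.03, while 10 more on the array were not kept. Ccn1 and Atf3 were measured only through the knockdown arrays, where they are high. When detection on all 6 arrays was required, 7 of 15 were higher and 5 lower. The largest rises were those of the matricellular protein Ccn1 (at least 4.86-fold on the corrected scale and 2.62-fold without background subtraction, not above background in scrambled cells), the zinc finger factor Klf6 (2.13 ± 0.08, SE, on the log2 scale), the matricellular protein Ccn2 (2.01 ± 0.09) and the small GTPase Rhob (1.29 ± 0.10). Kept probes of 1 gene differed in size, from 0.91 to 2.72 for Ccn1 and from 1.22 to 2.13 for Klf6. The falls included Arc at -0.65, a synaptic gene, and Myc at -0.56, the growth regulator, both named after their values were seen. The call of Myc was lost on leaving out scrambled replicate 1 or 2, or knockdown replicate 2 or 3. The count of 6 lower became 2 after median scaling, 3 without scrambled replicate 1 or 2 or knockdown replicate 1 or 2, and 2 without knockdown replicate 3.

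Of the bZIP proteins that can pair with AP-1 subunits, 9 of 16 on the array were measured. Of these, 1 was higher, 1 was lower and 7 did not pass. When detection on all 6 arrays was required, 0 of 6 were higher and 0 lower. Atf3, a stress-induced repressor that is itself an immediate early gene, rose at least 1.38-fold on the corrected scale, from a signal not above background. Creb1, which binds cyclic AMP elements, fell at least 1.17-fold on the corrected scale (1.07-fold without background subtraction), to a signal not above background in any knockdown sample. The call of Creb1 was lost in 8 of 16 alternatives, among them no background correction, median scaling, the authors' values and leaving out scrambled replicate 2 or knockdown replicate 2 or 3. Jdp2, a repressor that pairs with Jun, had a log2 change of -0.41 ± 0.16 (SE) and did not pass, but was called lower in the authors' values, with the replicate block and without scrambled replicate 3 (adjusted p = 0.0269, 0.046 and 0.0107). Atf2, a partner of Jun, had a change of 0.05 ± 0.07 (SE) and did not pass. Jdp2 and Atf2 were named after their values were seen.

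Of 16 kinases and SRF-side factors upstream of these genes on the array, 11 were measured, of which 1 was higher and 3 were lower. Map2k4, the kinase that activates JNK, rose by 0.33 ± 0.07 (SE) on the log2 scale. Srf (-0.32 ± 0.10), the ERK-activating kinase Map2k1 (-0.25 ± 0.08) and the p38 kinase Mapk14 (-0.22 ± 0.07) were called lower, but 0 of the 3 were after median scaling, with cyclic loess, or with any array left out other than scrambled replicate 2, where 2 were. The 2 kept probes of Srf had changes of -0.32 and -0.05. Mapk8 and Mapk9, the JNK kinases that phosphorylate Jun, had changes of 0.17 and -0.06 and did not pass (both named after their values were seen). Mapk8 was called higher with cyclic loess, after median scaling (0.32) and in the authors' values (0.24). The count of 1 higher became 3 after median scaling and in the authors' values, and 2 with cyclic loess or without scrambled replicate 1.

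The dual-specificity phosphatases that switch MAP kinases off, several of which are themselves induced by ERK, were higher in 6 of 10 measured cases, of 11 on the array, and lower in 2, with a median of 0.62. Dusp8 was measured only through the knockdown arrays, where it is high. When detection on all 6 arrays was required, 5 of 8 were higher and 2 lower. Dusp8, which acts on JNK and p38, rose at least 4.32-fold on the corrected scale, from a signal not above background, and 2.21-fold without background subtraction. Dusp4 (1.10 ± 0.07, SE), Dusp16 (0.80 ± 0.07) and Dusp5 (0.73 ± 0.08) followed. The 4 kept probes of Dusp16 ran from 0.03 to 0.81. The 2 that were lower were Dusp7 at -0.46 and Dusp14 at -0.30, named after their values were seen, and the call of Dusp14 was lost in 12 of 17 alternatives, among them all the other scalings and background corrections and leaving out scrambled replicate 1 or 3, or knockdown replicate 1 or 3.

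Among 9 measured genes, of 10 on the array, listed here under the turnover and repression of AP-1 and Egr1, 3 were higher and 2 lower. Those higher were Sfn, a 14-3-3 protein (1.76 ± 0.07, SE, on the log2 scale), Fbxw7, a ubiquitin ligase subunit that targets Jun (0.93 ± 0.09), and Nab1, a corepressor of Egr1 (0.53 ± 0.11). Whether Sfn has a part in AP-1 turnover or repression was not tested. Hdac3 (-0.29 ± 0.06) and Cop1 (-0.22 ± 0.06) were lower. Neither was called after median scaling, and the call of Cop1 was lost on leaving out scrambled replicate 2 or 3, or knockdown replicate 1 or 3. The 3 kept probes of Cop1 also differed in sign, from -0.22 to 0.12.

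Of 22 genes on the array that are known as AP-1 targets, 16 were measured, of which 8 were higher and 5 lower, or 3 lower after median scaling, with a median of 0.52. Krt19 and Anxa1 (named after its value was seen) were measured only through the knockdown arrays, where they are high. When detection on all 6 arrays was required, 6 of 12 were higher and 5 lower. The largest rises belonged to intermediate filament genes of epithelial and mesenchymal cells, Krt19 (at least 7.39-fold on the corrected scale and 3.64-fold without background subtraction), Krt18 (2.17 ± 0.17, SE, on the log2 scale), Vim (1.89 ± 0.07) and Krt8 (1.49 ± 0.09). Over the 17 processing alternatives the change of Krt18 ran from 1.30 to 2.37. The largest fall was that of Timp1, a matrix protease inhibitor, at -0.89 ± 0.06, named after its value was seen. Ccnd1, the cyclin most often cited as an AP-1 target, was called lower at -0.17 with an adjusted p of 0.0493, and not with any array left out. It too was named after its value was seen.

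**Figure D4:**
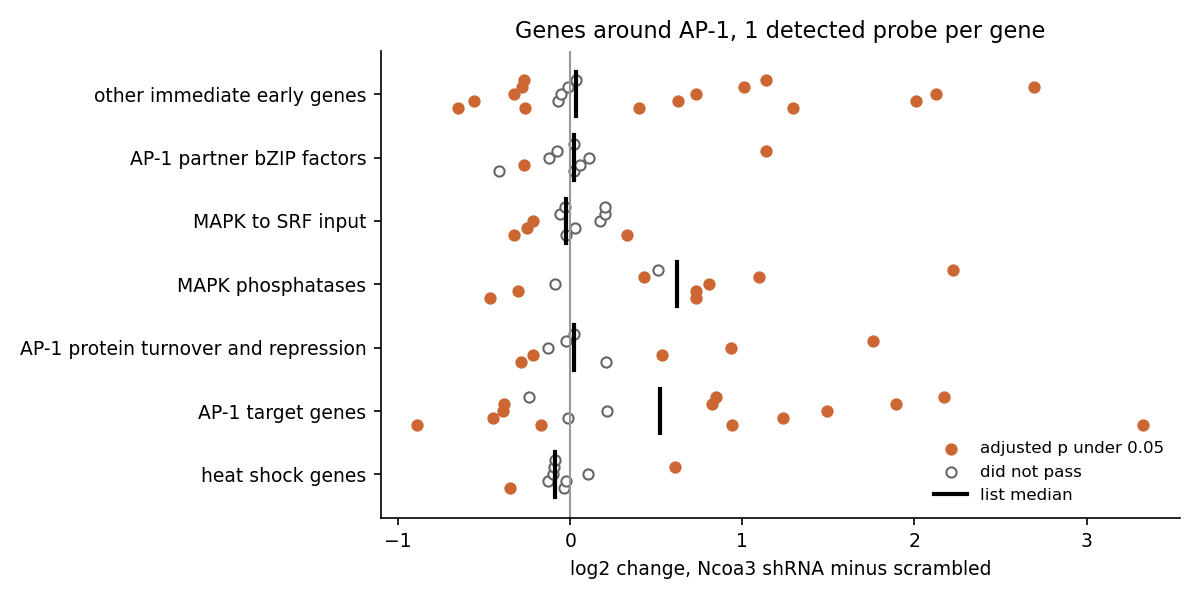
Log2 change, knockdown minus scrambled, of each measured gene in 7 lists, 1 point per gene; orange points passed the test, open points did not, and the black bar is the list's median. Medians run from -0.09 for heat shock genes to 0.62 for MAPK phosphatases.

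Handling and other cell types were examined because stress and differentiation can move immediate early genes. Of 9 measured heat shock genes, Hspa1a was higher (0.61 ± 0.13, SE, on the log2 scale), Hsph1 was lower (-0.35 ± 0.09, a call lost after median scaling and on leaving out scrambled replicate 3, or knockdown replicate 1 or 3) and 7 did not pass. The summed raw signal of 10 trophectoderm markers was 1081 to 1187 on scrambled and 2492 to 2685 on knockdown arrays, with 7 of 7 measured markers higher, of which Krt19, Cdx2 and Gata3 were measured only through the knockdown arrays and 3 were detected on all 6 arrays, and Hand1 and Eomes not detected on any array. The largest rises after Krt19 were those of Cdx2 (at least 5.41-fold on the corrected scale and 2.71-fold without background subtraction), Fgfr2 (5.05-fold) and Gata3 (at least 3.02-fold and 2.04-fold, likewise). Summed signal of 12 primitive endoderm markers was 4720 to 5027 and 7495 to 8614, with 4 of 7 measured higher (among them Sparc at 1.37, Gata6 at 0.88 and Col4a1 at 0.83 on the log2 scale), Amn (-0.59) and Lama1 (-0.33, not called after median scaling) lower, and Gata4, Sox17 and Cubn not detected on any array. Sparc alone read 1017 to 1110 on scrambled and 2683 to 3049 on knockdown arrays, and Col4a1 1518 to 1643 and 2729 to 3249. All sums are of raw signal, background included. The 11 embryonic stem cell markers summed to 72722 to 81075 and to 58923 to 64477, with 10 lower (the largest falls those of Tcl1 at -1.94, Fgf4 at -1.06, Nanog at -0.71 and Tdgf1 at -0.70). The 1 called higher, Utf1 at 0.32, was not without knockdown replicate 1 or 3. Of 9 fibroblast markers, Col1a1, Col1a2, Col3a1, Postn and Pdgfrb were not detected on any array and the summed signal was lower after knockdown (831 to 848, against 979 to 1018), with Thy1, the 1 measured, at -1.32. Among 10 mesoderm and neural markers on the array, 7 (Mesp1, Foxc2, Kdr, Sox1, Pax6, Tubb3 and Neurog2) were not detected on any array, and the sum was 914 to 1009 in scrambled and 1050 to 1144 in knockdown samples, with Nes, the 1 measured, at 2.25. The 2 kept probes of Nes had changes of 0.99 and 2.25. The part of these markers in the changes of the immediate early genes was not tested.

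The genes whose normalized log2 signal was most like that of Jun over the 6 arrays were Serpinh1, Anxa2, Gpx3, Cldn6 and Mt1, among 9562 genes. Their Pearson correlations with Jun were between 0.9996 and 0.9998, and their log2 changes were 1.70, 2.51, 1.64, 2.06 and 1.26. The 6 arrays fall into 2 groups of 3, so these correlations describe the difference between the groups and little else.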

How the data were processed

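The authors deposited a table of probe signal as intensity on a linear scale, non-normalized per the file headers, and beside each signal a detection p-value. It was not background-subtracted. A second deposited table gave the authors' normalized intensity, whose method is not given in the sources used here. Groups came from the sample titles.

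Signal was background-corrected from the detection p-values, quantile normalized and taken as log2 by neqc at an offset of 16 (limma 3.58.1, R 4.3.3). Probes with detection p under 0.01 on at least 3 of 6 arrays were kept (16674 of 45281), and every kept probe was tested with lmFit and eBayes, 2-sided, without covariates, adjusted by Benjamini-Hochberg over all of them. Every adjusted p in the text is limma's, and every log2 change is knockdown minus scrambled. An exact permutation test of 3 arrays against 3 has 0.1 as its smallest p. Where a group had no array above background, the fold is a bound against the lowest detected signal, valid on the background-corrected scale. Names came from GEO's platform annotation (34885 probes with 1 gene, 18 with several, 10378 unnamed). Chromosomes came from the RefSeq gene table of GRCm38.p6, which 34807 probes matched by gene number.

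The members and lists were chosen with earlier results of these data known. Named genes are all members and up to 4 called genes of each list by size of change, with all of them where 5 or fewer were called. Genes outside that rule are marked in the text as named after their values were seen. Lama1, Utf1 and the markers not detected on any array also fall outside it and were named after their values were seen. Ncoa3 and Esrrb were named to check the labels, and 5 genes for their likeness to Jun. The fit was tested on simulated data. The number of arrays limits the precision.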

Additional observations from a re-analysis of the deposited data

How the results depend on the processing

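The count of member probes called higher was 6 of 7 kept, and 5 to 7 over 17 alternatives, with 0 called lower in any of them. Under each alternative, Jun, Junb, Egr1 and Ier3 were called higher, and so were Fos and Fosl2, except that both were left untested when detection on all 6 arrays was required. Jund, with a change of 0.65 (adjusted p = 0.0565), was called in 9 of the 17. The 7271 of all kept probes called became 5524 with 1 probe per gene and 8102 with a trended and robust prior, and 5908 to 6738 with an array left out. With the replicate number as a block, 6644 probes and 7 members were called. Deviations of same-numbered arrays correlated between -0.00588 and 0.0153, which cannot show whether those samples were prepared together. The sample titles give a replicate number and no more. Of the calls, 47.9% were higher, against 69.9% after median scaling over all probes, which shifted the median change by 0.124 and left 2012 lower calls in place of 3791, and 59.7% in the authors' values. The shift under median scaling was upward. Each of the 7 kept members had a larger change there than as reported, from 0.78 for Egr1 to 1.99 for Jun. Cyclic loess, array weights, normexp at an offset of 50 and no filter on dim probes were also run. Signal near background limits the folds of every gene given a bound, of Jun, and of other genes with low signal in 1 group. Over the 17 alternatives, log2 changes ran from 1.30 to 2.37 for Krt18 and from 1.32 to 2.39 for Nes. Those of Fgf4 ran from -1.13 to -0.47 and those of Thy1 from -1.40 to -0.78. The log2 changes of Jun, Fos and Fosl2 were 0.94, 0.50 and 0.58 with no background correction.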
